A study of Mus musculus with 36 samples.

Results

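The 34 genes described here encode the enzymes and regulators of cholesterol synthesis (21 genes, called the sterol arm) and of fatty acid synthesis (13 genes, the fatty acid arm). They were taken by name from a list of the pathway, chosen with earlier results of these data known. They are 34 of the 45232 genes in the deposited tables. All 34 passed the filter on low counts and are among the 18176 genes tested. The libraries come from primary mouse prostate organoids, cultures of prostate epithelial cells grown as small hollow or solid bodies. The cells carried 1 of 4 constructs in a pCW vector, which is switched on by doxycycline (dox): wild-type FOXA1 (WT), the FOXA1 variant FE255del, the FOXA1 variant R219S, or no FOXA1 insert (EV, which the labels call the empty vehicle). FOXA1 is a forkhead transcription factor of the prostate epithelium, and the induced product carries the fluorescent protein DsRED after a 2A peptide. RNA was sequenced on days 0, 1 and 11 from 3 cultures of each construct, or 36 libraries in 12 groups. Dox was used at 500 ng/mL, and the deposited names of the day 0 libraries mark them as without dox, although the labels list the treatment for every sample. The replicates of a construct are triplicate cultures of its sorted DsRED-positive cells, per the labels, so p-values measure the spread between such cultures. The number of mice is not given in the sources used here, and the organoids keep their own Foxa1 gene.

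Cholesterol is built from acetyl-CoA through the mevalonate pathway to farnesyl diphosphate, which is joined to squalene, closed into lanosterol and trimmed to cholesterol. Fatty acids are built from acetyl-CoA by carboxylation to malonyl-CoA and chain synthesis, then lengthened by elongases and given double bonds by desaturases. Both arms are switched on by the SREBP transcription factors: SREBP2, from Srebf2, acts mostly on sterol genes and SREBP1, from Srebf1, mostly on fatty acid genes. When sterols are plentiful, INSIG1 holds the SREBP escort SCAP in the endoplasmic reticulum, and Insig1 is itself an SREBP target. Dividing cells need both products for new membranes, and prostate epithelium is known for active lipid synthesis that androgens raise.

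Promoter windows of 3 genes described below are shown: Hmgcs1, Mvk and Elovl6. Each holds the bases up to 250 before the RefSeq start on GRCm38.p6, cut where GENCODE M21 starts the gene earlier, plus strand, 5′ to 3′. Capitals mark the sterol regulatory element letters TCACNCCAC in Hmgcs1 (chr13:119690101-119690350), CCAAT or its reverse complement ATTGG in Mvk (chr5:114444019-114444268), and the reverse complement of the forkhead letters TGTTTAC in Elovl6 (chr3:129532136-129532354).
Hmgcs1: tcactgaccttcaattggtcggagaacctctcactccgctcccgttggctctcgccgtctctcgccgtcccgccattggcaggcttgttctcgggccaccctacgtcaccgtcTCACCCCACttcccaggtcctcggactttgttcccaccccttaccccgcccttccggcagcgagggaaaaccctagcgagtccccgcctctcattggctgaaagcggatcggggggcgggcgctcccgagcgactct
Mvk: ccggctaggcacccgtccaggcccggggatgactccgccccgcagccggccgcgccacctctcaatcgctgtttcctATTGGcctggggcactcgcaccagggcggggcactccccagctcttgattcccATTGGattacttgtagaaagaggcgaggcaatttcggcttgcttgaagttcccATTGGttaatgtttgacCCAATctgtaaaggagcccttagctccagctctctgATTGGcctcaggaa
Elovl6: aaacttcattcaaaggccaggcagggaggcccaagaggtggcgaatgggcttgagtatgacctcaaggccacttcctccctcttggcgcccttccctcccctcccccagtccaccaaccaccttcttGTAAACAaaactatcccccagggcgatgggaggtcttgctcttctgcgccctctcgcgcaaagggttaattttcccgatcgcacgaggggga
Of the 34 genes, 27 matched the RefSeq promoter table, with 33 windows of 250 bases before to 50 bases after a start. Searched on both strands, TCACNCCAC was in 1 of the 33 windows, against 1.24% of all 32851 windows in the table, and TGTTTAC was also in 1, against 3.65%. These single matches are the ones marked above in Hmgcs1 and Elovl6. CCAAT was in 24 of them, or 72.7%, against 37.4% of all windows, and the GC box GGGCGG in 23, or 69.7%, against 35.7%. The E-box CACGTG was in 5 windows, those of Hsd17b7, Insig1, Dhcr7, Sc5d and Elovl5, against 7.15% of all windows. These are letter matches, not binding sites, and windows of 1 gene overlap.

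Library totals ran from 61476938 to 102385337 counts, replicates of a group correlated at 0.992 or more on log2 CPM, and mitochondrial genes took 1.32% to 4.37% of the counts. As a check of the labels, Foxa1 averaged 414 CPM in WT, 320 in FE255del and 309 in R219S organoids at day 1, against 227 in EV, and passed as higher in all 3. At day 0 it averaged 257, 233 and 229 CPM in the same order, against 233 in EV, and at day 11 it averaged 269, 295 and 268 CPM, against 230 in EV. Epithelial markers (Epcam, Cdh1, Krt8, Krt18) summed to between 2104 and 3721 CPM in all 36 libraries. CPM here are counts per 1e6 library counts, with library sizes scaled by the TMM method, and a gene passed the test when its edgeR quasi-likelihood p, adjusted by Benjamini-Hochberg over all 18176 genes of that comparison, was under 0.05.

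The level of the 34 genes spanned a wide range. Per kilobase of exon, the group means of Scd2, a stearoyl-CoA desaturase, ran from 342 to 611 CPM, the highest of the 34, and those of Acacb, the acetyl-CoA carboxylase of the mitochondrial surface, from 0.321 to 3.77 CPM, the lowest. Hmgcs1, the HMG-CoA synthase, ran from 64.8 to 132 CPM per kilobase. Of the 21 sterol genes, 10 had their highest group mean in R219S organoids at day 0 and 5 in FE255del organoids at day 0, and the lowest mean fell on R219S at day 11 for 8, on WT at day 1 for 6, on EV at day 11 for 4 and on WT at day 11 for 3. Of the 13 fatty acid genes, 5 were highest in R219S at day 0, and 8 were lowest in WT at day 1. High levels at day 0 and low levels at day 1 with WT or at day 11 therefore held for most of both arms.

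After 1 day of dox, most of the pathway was lower in WT and FE255del organoids than in EV. In WT organoids at day 1, 28 of the 34 genes were lower than in EV and 2 were higher, against 30.9% and 29.6% of all genes tested, and the median log2 fold change was -0.60, against -0.01 over all genes. In FE255del organoids 27 were lower and 5 higher, against 27.7% and 25.5% of all genes, with a median of -0.41, against -0.03. In R219S organoids 13 were lower and 5 higher, against 25.3% and 23.2%, with a median of -0.11, against -0.04. The R219S split depended on the scaling, with 7 higher and 10 lower under RLE and 8 and 10 under total-count scaling. All 3 libraries lay below all 3 EV libraries for 28 genes in WT, 27 in FE255del and 19 in R219S, against 32.9%, 32.8% and 32% of all genes. The 3 comparisons share the same EV libraries. These are bulk samples, in which fewer cells of a type and less RNA per cell cannot be told apart.

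Both arms took part. The sterol arm had a median log2 fold change of -0.55 in WT, -0.40 in FE255del and -0.02 in R219S organoids at day 1, with 18, 17 and 6 of the 21 genes lower. Of all genes tested, 30.9%, 27.7% and 25.3% were lower and 29.6%, 25.5% and 23.2% higher, in the same order. The R219S sterol count lies near its share. The R219S sterol median was 0.01 under RLE and 0.03 under total-count scaling, so it had no stable sign. With FE255del 3 sterol genes and with R219S 4 were higher. The fatty acid arm had medians of -0.76, -0.47 and -0.22, with 10, 10 and 7 of the 13 genes lower and 2, 2 and 1 higher. Library by library, each arm was scored by centring the log2 CPM of every gene on its 36-library mean and taking the median over the arm's genes. The sterol score at day 1 was -0.38, -0.26 and -0.41 in WT, -0.13, -0.13 and -0.14 in FE255del and 0.25, 0.24 and 0.21 in R219S, against 0.25, 0.25 and 0.27 in EV. The fatty acid score was -0.63, -0.49 and -0.62 in WT, -0.29, -0.31 and -0.29 in FE255del and 0.06, -0.02 and -0.01 in R219S, against 0.20, 0.24 and 0.21 in EV. In the sterol arm, R219S replicate 1 (0.2497) thus lay just within the EV range, whose lowest score was 0.2478, and replicates 2 and 3 lay below it. In the fatty acid arm all R219S libraries lay below all EV libraries. The sterol score minus the fatty acid score at day 1 was 0.21 to 0.25 in WT, 0.15 to 0.18 in FE255del and 0.19 to 0.26 in R219S. In EV it was 0.01 to 0.07, with no overlap with any of the 3 constructs. At day 0 it was 0.10 to 0.13 in WT, already above the 0.04 to 0.08 of EV. FE255del (0.04 to 0.10) and R219S (0.01 to 0.11) overlapped EV at day 0. The score of 12 cell division genes also differed at day 1, at -0.59, -0.42 and -0.58 in WT, against 0.46, 0.57 and 0.48 in EV. It was -0.14, -0.08 and -0.07 in FE255del and 0.16, 0.13 and 0.05 in R219S, all below EV. The scores were not tested.

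**Figure D1:**
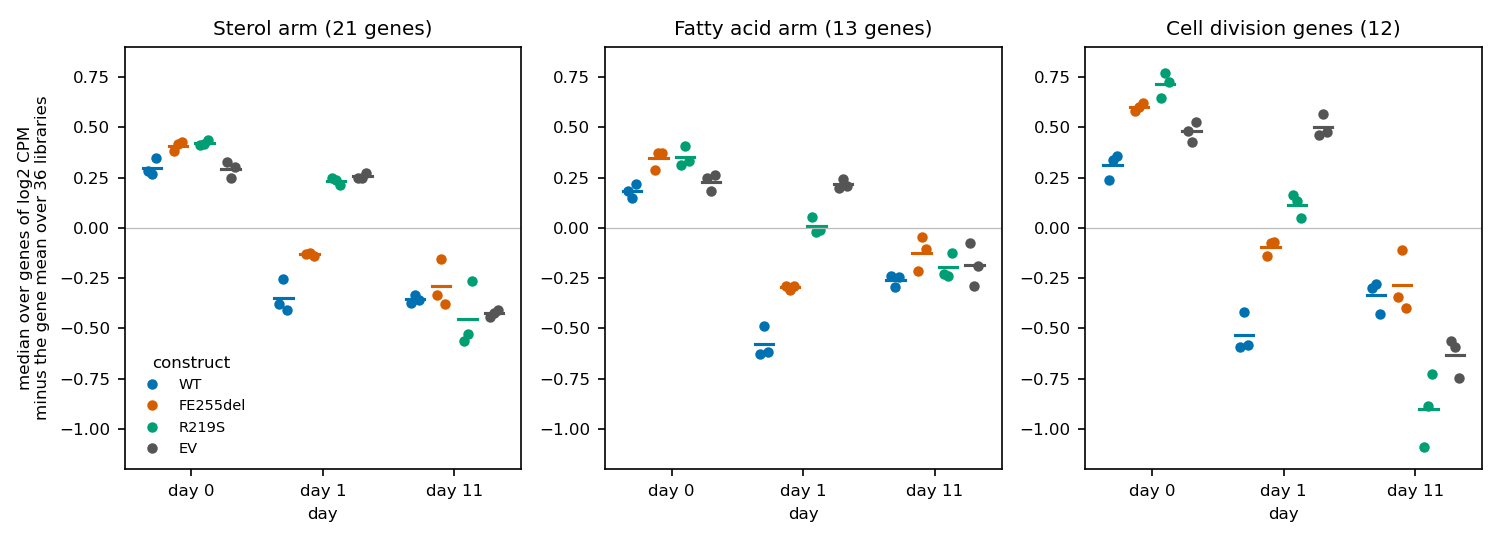
Score of the sterol arm, the fatty acid arm and 12 cell division genes in each library (points) with the group mean (line), by day and construct. On the vertical axis, 0 is the mean over the 36 libraries on a log2 scale. At day 1 the WT libraries are lowest in both arms (-0.41 to -0.26 and -0.63 to -0.49), and at day 11 all libraries lie below 0 in both arms.

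The first part of the sterol arm, from acetyl-CoA to farnesyl diphosphate, was lower in WT organoids at day 1 for 6 of 7 genes (median -0.55), in FE255del for 5 of 7 (median -0.40) and in R219S for 1 of 7 (median -0.02). Of all genes tested, 30.9%, 27.7% and 25.3% were lower in the same order. Idi1 (ENSMUSG00000058258.11, chr13:8885501-8892451, + strand, GRCm38, GENCODE M21), the isomerase that makes dimethylallyl diphosphate, had 28.4, 32.2 and 28.9 CPM in WT, 41.7, 39.5 and 38.7 in FE255del and 55.1, 56.3 and 50.9 in R219S organoids at day 1, against 62.3, 70.2 and 66.7 in EV. The 4 groups did not overlap, and all 3 FOXA1 constructs were below EV (WT: log2 fold change -1.15, SE 0.08, adjusted p = 4.94e-14; FE255del: -0.73; R219S: -0.30). Acat2, which makes acetoacetyl-CoA, had 71.0, 84.3 and 73.5 CPM in WT and 99.6, 97.1 and 93.0 in FE255del, against 137, 141 and 147 in EV, with log2 fold changes of -0.89 and -0.55. Its R219S libraries had 136, 128 and 128 CPM, a difference of -0.12 (adjusted p = 0.107) that did not pass. Hmgcs1 had 335, 364 and 327 CPM in WT and 371, 377 and 372 in FE255del, against 540.5, 557 and 526 in EV, and both were lower (WT: log2 fold change -0.66, SE 0.07, adjusted p = 2.46e-10; FE255del: log2 fold change -0.54, SE 0.07, adjusted p = 2.97e-08). With R219S it had 560.4, 565 and 539 CPM, which overlapped EV (0.04, adjusted p = 0.698). Pmvk, Mvd and Fdps, which act further along the mevalonate pathway, were lower in WT (log2 fold changes of -0.51, -0.55 and -0.53), and Fdps was higher with R219S (0.23). Reads of Fdps are less certain than those of the others, since 26.7% of its exon bases are shared with the gene Gm43738 on the same strand.

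Mvk (ENSMUSG00000041939.11, chr5:114444269-114460591, + strand), the mevalonate kinase, stood apart from its pathway. It had 89.0, 93.1 and 81.3 CPM in FE255del organoids at day 1, 43.2, 43.2 and 45.9 in WT and 44.7, 45.6 and 43.2 in R219S, against 43.5, 46.2 and 45.8 in EV. Only the FE255del libraries were high, with no overlap with the other 3 groups (log2 fold change 0.96, SE 0.07, adjusted p = 1.59e-14; against WT, log2 fold change 0.99, SE 0.07, adjusted p = 2.67e-14). The WT and R219S differences from EV were -0.03 (adjusted p = 0.688) and -0.02 (adjusted p = 0.821). At day 11 the FE255del level was 33.3, 37.7 and 32.5 CPM, against 30.5, 31.2 and 30.4 in EV, and the log2 difference from EV changed by -0.79 between day 1 and day 11 (SE 0.09, adjusted p = 2.89e-08). No exon base of Mvk is shared with another gene.

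From squalene to cholesterol, 9 of 11 genes were lower in WT organoids at day 1 (median -0.68), 10 lower and 1 higher in FE255del (median -0.43) and 4 lower and 3 higher in R219S (median -0.11). Of all genes tested, 30.9% were lower in WT, 27.7% lower and 25.5% higher in FE255del, and 25.3% lower and 23.2% higher in R219S. The R219S counts lie near these shares. Nsdhl, which removes a methyl group of the sterol ring, had 77.3, 87.8 and 79.8 CPM in WT and 117, 112 and 111 in FE255del, against 166, 173 and 175 in EV. Neither group overlapped EV (WT: log2 fold change -1.07, SE 0.06, adjusted p = 3.2e-17; FE255del: log2 fold change -0.60, SE 0.06, adjusted p = 1.2e-10), and R219S, with 159, 158 and 158 CPM, differed from EV by -0.11 (adjusted p = 0.12). Sqle, the squalene epoxidase, had 131, 147 and 131 CPM in WT, 193, 188 and 188 in FE255del and 238, 234 and 228 in R219S, against 259, 268 and 268 in EV. It was lower with all 3 constructs, with log2 fold changes of -0.96, -0.48 and -0.18. Cyp51, the lanosterol demethylase, and Msmo1, the methylsterol oxidase, were lower in WT (-0.88 and -0.83) and in FE255del (-0.55 and -0.43). Dhcr7, the last reductase before cholesterol in one branch, was lower in both as well (-0.68 and -0.56).

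Several late sterol genes went their own way with R219S. Ebp, the sterol isomerase, had 43.8, 42.4 and 42.3 CPM with R219S at day 1, against 56.7, 62.1 and 63.9 in EV, below all EV libraries (log2 fold change -0.51, SE 0.05, adjusted p = 9.2e-10), whereas WT differed by -0.11 (adjusted p = 0.0849). Tm7sf2, a sterol reductase of the nuclear envelope and endoplasmic reticulum, had 34.6, 33.1 and 34.3 CPM with R219S, against 25.8, 25.2 and 25.5 in EV, above all EV libraries (log2 fold change 0.42, SE 0.08, adjusted p = 5.14e-05), and it was lower in WT (-0.44). Fdft1, the squalene synthase, was higher with R219S as well, at 151, 148 and 148 CPM, against 111, 119 and 122 in EV (log2 fold change 0.35, SE 0.06, adjusted p = 4.08e-06), and did not pass in WT (0.01, adjusted p = 0.898). The R219S difference in Fdft1 was there at day 0 (0.36), and the change since day 0 differed from that of EV by -0.02 (adjusted p = 0.927), which did not pass. Fdft1 shares 18.3% of its exon bases with Ctsb on the opposite strand and Tm7sf2 shares 12.1% with Vps51 on its own strand, and whether the counting used strand is not given in the sources used here. Sc5d, the sterol C5 desaturase, was higher in FE255del (0.21).

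**Figure D2:**
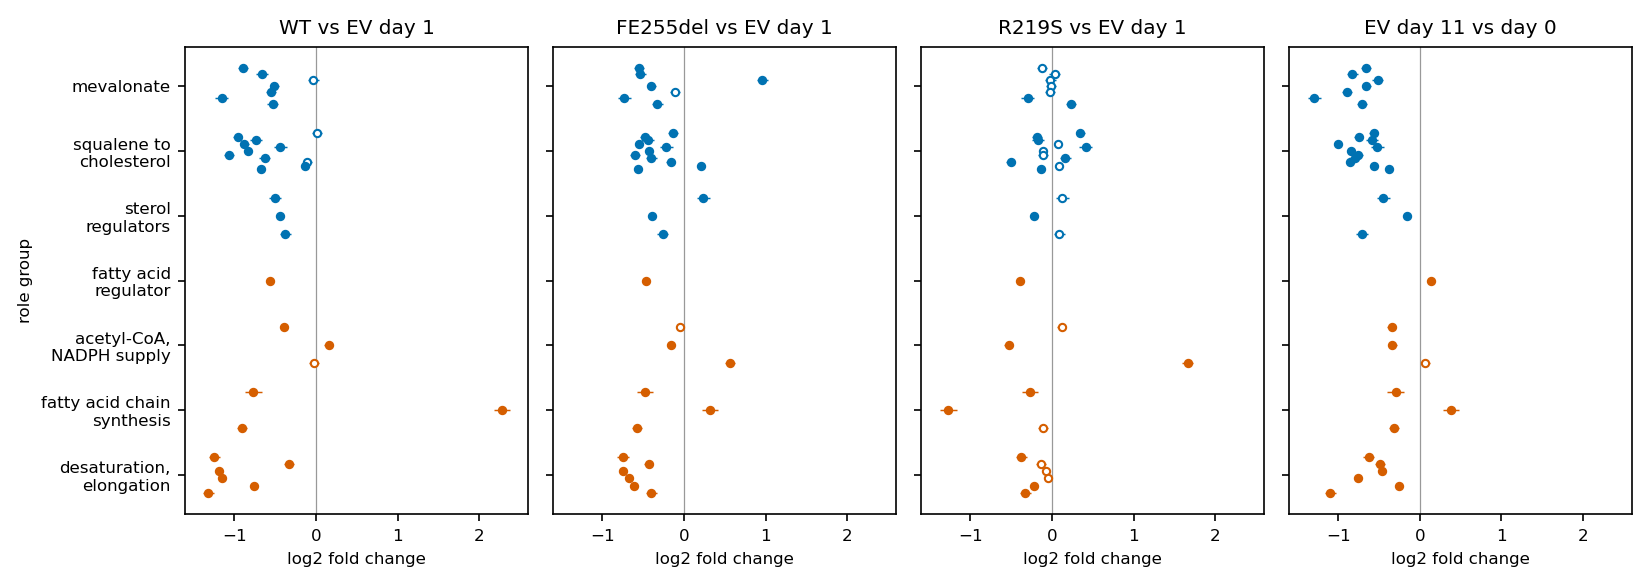
Log2 fold change of each of the 34 genes (points; bars are 1 SE) by role group, for WT, FE255del and R219S against EV at day 1 and for EV at day 11 against EV at day 0. Filled points passed at an adjusted p under 0.05, blue points are the sterol arm and orange points the fatty acid arm. Of the filled points, 28 of 30 in WT and 27 of 32 in FE255del lie left of 0, while the R219S points lie between -0.53 (Acss2) and 0.42 (Tm7sf2) apart from Me1 (1.66) and Acacb (-1.27).

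The regulators of the pathway fell with the enzymes in WT organoids. Srebf2 had 288, 320.1 and 287 CPM in WT, 307, 312 and 310.1 in FE255del and 361, 339.6 and 341 in R219S organoids at day 1, against 389, 411 and 417 in EV. It was lower with all 3, with no overlap with EV (WT: log2 fold change -0.44, SE 0.05, adjusted p = 2.47e-10; FE255del: -0.39; R219S: -0.22). Srebf1 had 130.2, 132 and 129 CPM in WT, 139, 140.3 and 138 in FE255del and 153, 142 and 147 in R219S, against 187, 194 and 196 in EV, also lower with all 3 and without overlap (WT: log2 fold change -0.56, SE 0.04, adjusted p = 7.55e-15; FE255del: -0.47; R219S: -0.39). Insig1 (ENSMUSG00000045294.11, chr5:28071363-28078662, + strand) had 63.4, 71.5 and 61.2 CPM in WT, 108, 107 and 113 in FE255del and 104, 99.5 and 99.6 in R219S at day 1, against 92.6, 93.5 and 91.5 in EV. It was lower in WT (log2 fold change -0.50, SE 0.08, adjusted p = 1.65e-06), higher in FE255del (log2 fold change 0.24, SE 0.08, adjusted p = 0.0102), and did not pass in R219S (0.13, adjusted p = 0.186). FE255del organoids were above EV in Insig1 at day 0 already (log2 fold change 0.39), and their change since day 0 differed from that of EV by -0.15 (adjusted p = 0.299), which did not pass. Stard4, a carrier that moves cholesterol between membranes, was lower in WT (-0.38) and FE255del (-0.26) and had 142, 143 and 140.4 CPM with R219S, against 135, 135 and 130.5 in EV.

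In the fatty acid arm the enzymes that lengthen and desaturate chains moved most uniformly: 6 of 6 were lower in WT organoids at day 1 (median -1.17), 6 of 6 in FE255del (median -0.64) and 3 of 6 in R219S (median -0.17). The shares of all genes tested that were lower were 30.9%, 27.7% and 25.3%. Elovl6 (ENSMUSG00000041220.7, chr3:129532355-129638495, + strand), the elongase of palmitate, had 48.4, 61.2 and 51.3 CPM in WT, 102, 101 and 101 in FE255del and 112, 105 and 102 in R219S, against 127, 140.2 and 134 in EV. All 3 constructs lay below EV (WT: log2 fold change -1.32, SE 0.07, adjusted p = 3.34e-17; FE255del: -0.40; R219S: -0.33). Scd1, a desaturase of stearate, had 79.3, 92.6 and 80.0 CPM in WT, 119, 117 and 120.4 in FE255del and 161, 149 and 150.01 in R219S, against 197, 200.04 and 202 in EV, and was lower with all 3 (-1.25, -0.75 and -0.38). The neighbouring genes Fads1 (ENSMUSG00000010663.4, chr19:10182888-10196877, + strand) and Fads2 (ENSMUSG00000024665.7, chr19:10062765-10101746, - strand), which encode the desaturases of polyunsaturated fatty acids, were both lower in WT and FE255del. Fads1 had 87.4, 92.0 and 90.0 CPM in WT and 119.5, 122 and 125 in FE255del, against 199, 208 and 206 in EV (WT: log2 fold change -1.19, SE 0.04, adjusted p = 8.07e-24; FE255del: log2 fold change -0.75, SE 0.04, adjusted p = 3.16e-18). Fads2 had 63.9, 67.1 and 63.2 CPM in WT and 87.9, 91.0 and 90.3 in FE255del, against 137, 147 and 147 in EV (-1.15 and -0.68). With R219S neither passed: Fads1 had 199, 192 and 192 CPM (-0.07, adjusted p = 0.107) and Fads2 142, 138 and 138 CPM (-0.04, adjusted p = 0.455). Scd2 was lower in WT (-0.33) and FE255del (-0.43), and Elovl5, the elongase of polyunsaturated chains, was lower with all 3 constructs (-0.76, -0.61 and -0.22).

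Chain synthesis itself was divided between the 2 carboxylases. Acacb (ENSMUSG00000042010.13, chr5:114146535-114250761, + strand), whose malonyl-CoA is known to restrain fatty acid oxidation, had 34.9, 37.5 and 36.6 CPM in WT organoids at day 1, 9.73, 9.56 and 8.62 in FE255del and 2.68, 3.10 and 3.497 in R219S, against 8.21, 7.25 and 6.96 in EV. WT was 4.86-fold of EV (log2 fold change 2.28, SE 0.10, adjusted p = 1.13e-20) and R219S was 0.414-fold of EV (log2 fold change -1.27, SE 0.10, adjusted p = 1.4e-12), and neither overlapped EV. FE255del lay above EV by a smaller amount (log2 fold change 0.32, SE 0.10, adjusted p = 0.00563). Acaca, the cytosolic carboxylase that feeds fatty acid synthesis, had 46.3, 56.8 and 47.8 CPM in WT and 63.2, 59.9 and 61.2 in FE255del, against 84.3, 85.3 and 87.1 in EV (-0.77 and -0.48). Fasn, the fatty acid synthase, had 209, 232 and 207 CPM in WT, 263, 278 and 277 in FE255del and 394, 363 and 375 in R219S, against 401, 414 and 403 in EV. It was lower in WT (log2 fold change -0.91, SE 0.06, adjusted p = 1.48e-14) and FE255del (log2 fold change -0.58, SE 0.06, adjusted p = 1.31e-09), and with R219S it differed by -0.11 (adjusted p = 0.17).

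The 3 genes that supply acetyl-CoA and NADPH did not move together. Me1 (ENSMUSG00000032418.12, chr9:86581371-86695953, - strand), the cytosolic malic enzyme that makes NADPH, had 158, 169 and 168 CPM in R219S organoids at day 1 and 77.6, 78.0 and 75.8 in FE255del, against 51.7, 51.9 and 52.7 in EV. Both variants were above all EV libraries (R219S: log2 fold change 1.66, SE 0.07, adjusted p = 8.57e-21; FE255del: log2 fold change 0.57, SE 0.07, adjusted p = 3.8e-09), while WT, with 49.8, 54.8 and 48.9 CPM, overlapped EV (-0.03, adjusted p = 0.762). Acly, the ATP citrate lyase, was lower in WT (-0.39), with 268, 297 and 265 CPM, against 355, 366 and 369 in EV, and did not pass in FE255del (-0.05, adjusted p = 0.46) or R219S (0.12, adjusted p = 0.0611). Acss2, which makes acetyl-CoA from acetate, was lower with R219S, at 34.1, 33.3 and 33.1 CPM, against 47.1, 52.1 and 46.0 in EV (log2 fold change -0.53, SE 0.05, adjusted p = 5.47e-11). In WT it had 57.0, 51.1 and 53.4 CPM, which overlapped EV, and passed as higher (0.15), a call lost without replicate 3 of EV (adjusted p = 0.0691) or replicate 1 of WT (adjusted p = 0.0681). Acss2 shares 9.12% of its exon bases with other genes, all on the opposite strand.

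**Figure D3:**
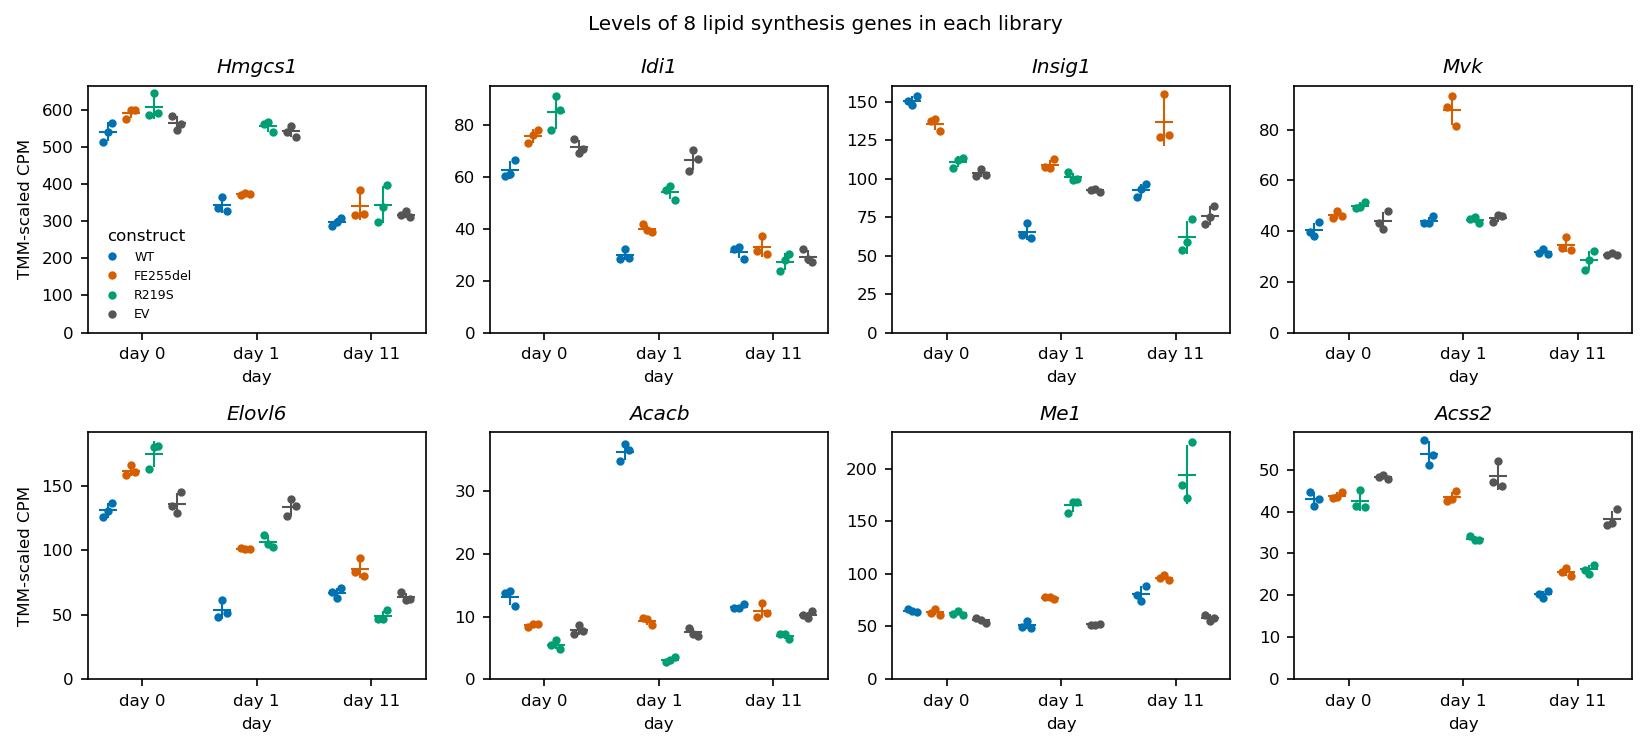
TMM-scaled CPM of 8 genes in each library (points) with the group mean and SD, by day and construct, on axes that start at 0. Mvk is high in FE255del at day 1 (81.3 to 93.1 CPM), Acacb in WT at day 1 (34.9 to 37.5 CPM) and Me1 in R219S at days 1 and 11 (158 to 226 CPM), while Hmgcs1, Idi1 and Elovl6 are low in WT at day 1 and in every construct at day 11.

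Set directly against WT at day 1, most of the pathway was higher with the variants. With FE255del 25 of the 34 genes were higher and 3 lower, against 21.8% and 19.9% of all genes tested, with a median of 0.31. With R219S 30 were higher and 3 lower, against 30.5% and 29.1%, with a median of 0.60. These 2 comparisons share the WT libraries. Among sterol genes the largest differences with R219S that passed were Nsdhl (0.96), Cyp51 (0.95), Idi1 (0.86), Tm7sf2 (0.85) and Hsd17b7, a ketosteroid reductase of the pathway (0.79). With FE255del they were Mvk, given above, Insig1 (0.74), Sqle (0.48), Nsdhl (0.47) and Mvd (0.43). In the fatty acid arm Me1, Fads1, Fads2, Elovl6 and Scd1 were higher with R219S by 1.69, 1.12, 1.11, 0.99 and 0.87, and with FE255del by 0.59, 0.44, 0.47, 0.92 and 0.501. Acacb was lower in both (R219S: log2 fold change -3.55, SE 0.10, adjusted p = 6.03e-25; FE255del: log2 fold change -1.96, SE 0.09, adjusted p = 4.88e-18), and so was Acss2 (-0.68 and -0.31). Ebp was lower with R219S (-0.40), and its FE255del difference from WT was -0.05 (adjusted p = 0.48). Some differences from WT were there at day 0. With R219S, Hsd17b7 (0.47), Idi1 (0.44), Elovl6 (0.41) and Ebp (0.40) were higher at day 0 and Acacb (-1.25) was lower. With FE255del, Elovl6 (0.30) was higher at day 0 and Acacb (-0.61) lower. The change since day 0 was not set against that of WT, so the day 1 differences are not corrected for day 0. Among the 3 FOXA1 constructs, the mean level at day 1 was lowest in WT for 19 of 21 sterol and 10 of 13 fatty acid genes, and it ran from WT through FE255del to R219S in ascending order for 16 and 10.

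At day 11 the picture against EV was mixed. In WT organoids 9 of the 34 genes were higher and 8 lower, against 21% and 19.7% of all genes tested, with a median of 0.04. The number called fell from 17 to between 10 and 14 when any 1 library was left out. Without replicate 3 of EV at day 11, 6 were higher and 4 lower. The split was 9 and 5 under RLE and 11 and 4 under total-count scaling. In FE255del organoids 14 were higher and 5 lower, against 22.6% and 19.6%, with a median of 0.10, and 8 and 4 without its replicate 2. In R219S organoids 7 were higher and 7 lower, against 17.7% and 14.4%, with a median of -0.05, and 6 and 12 under total-count scaling. The sterol medians were 0.07, 0.17 and -0.07 in WT, FE255del and R219S, and the fatty acid medians -0.07, 0.05 and -0.03. With 1 library left out at a time, the sterol medians ran from 0.05 to 0.09 in WT, 0.08 to 0.21 in FE255del and -0.14 to -0.01 in R219S. The fatty acid median of FE255del turned to -0.04 without replicate 2 of EV and to -0.02 without its own replicate 2, and that of R219S to 0.02 without replicate 1 of EV. The sterol score of R219S replicate 3 was -0.27, against -0.56 and -0.53 in its replicates 1 and 2, and that of FE255del replicate 2 was -0.16, against -0.34 and -0.38 in its replicates 1 and 3, so these 2 libraries stood above the others of their groups.

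Single genes did differ clearly at day 11. Me1 had 80.1, 74.5 and 88.7 CPM in WT, 95.8, 99.2 and 94.3 in FE255del and 185, 172 and 226 in R219S, against 61.4, 55.2 and 58.5 in EV, higher with all 3 and without overlap with EV (R219S: log2 fold change 1.73, SE 0.07, adjusted p = 1.38e-20; FE255del: 0.72; WT: 0.47). Acss2 had 20.3, 19.4 and 20.98 CPM in WT, 25.5, 26.6 and 24.7 in FE255del and 26.1, 25.2 and 27.2 in R219S, against 36.9, 37.3 and 40.5 in EV, lower with all 3 and without overlap with EV (WT: log2 fold change -0.92, SE 0.05, adjusted p = 2.45e-16; FE255del: -0.58; R219S: -0.55). For Acss2 in WT, the log2 difference from EV changed by -1.07 between day 1 and day 11 (SE 0.07, adjusted p = 2.26e-14). Insig1 had 127, 155 and 129 CPM in FE255del and 87.9, 93.2 and 96.5 in WT, against 70.5, 75.0 and 82.5 in EV (FE255del: log2 fold change 0.85, SE 0.08, adjusted p = 1.46e-10; WT: log2 fold change 0.28, SE 0.08, adjusted p = 0.00391). Both were above EV at day 0 too (0.39 and 0.54), and beside EV the change since day 0 was 0.46 in FE255del and -0.26 (adjusted p = 0.101) in WT. With R219S it had 53.5, 58.7 and 74.0 CPM, and the call as lower (-0.29) was lost without replicate 1 of R219S (adjusted p = 0.0586) and in a fit of R219S and EV alone (adjusted p = 0.0939). Sc5d had 80.7, 89.5 and 84.2 CPM in R219S, above all EV libraries, against 59.9, 61.4 and 58.3 in EV (log2 fold change 0.502, SE 0.04, adjusted p = 1.27e-12), and was below EV in WT (-0.31) and FE255del (-0.20). Both of these were below EV at day 0 as well (-0.32 and -0.11), and the change since day 0 did not differ from that of EV past the threshold, at 0.00 (adjusted p = 0.991) in WT and -0.09 (adjusted p = 0.301) in FE255del.

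Sterol genes above EV with FE255del at day 11 included Cyp51 and Mvd. Cyp51 had 186, 212 and 210.0 CPM, against 150.5, 149 and 146 in EV (log2 fold change 0.45, SE 0.05, adjusted p = 6.64e-09), and Mvd, the decarboxylase of the mevalonate pathway, 39.5, 40.3 and 36.3 CPM, against 29.8, 29.4 and 26.7 in EV (log2 fold change 0.43, SE 0.06, adjusted p = 6.81e-07). Lss, the lanosterol synthase, was above EV in FE255del (0.39), and Acly was above it in FE255del (0.36) and WT (0.23). Elovl6 was above EV in FE255del (0.43) and below it in R219S (-0.37). Acacb (-0.56) and Ebp (-0.33) were below EV in R219S, and Fads1 (0.27) and Elovl5 (0.22) were above it. Fasn was below EV in WT (-0.26), and Srebf1 was below EV in WT (-0.22) and FE255del (-0.26). Srebf1 had 181, 184 and 179 CPM in WT and 177, 177 and 173 in FE255del, against 211, 203 and 218.5 in EV.

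Against WT at day 11, FE255del had 12 of the 34 genes higher, against 9.75% of all genes tested. By edgeR 0 were lower, against 7.92%, with 1 at an unadjusted p under 0.05 and 0 by DESeq2. The higher genes were led by Insig1 (0.57), Mvd (0.47), Elovl6 (0.35), Acss2 (0.34) and Cyp51 (0.32). R219S had 11 higher and 11 lower, against 24.8% and 24.1%, or 7 and 18 under total-count scaling. The higher ones included Me1 (1.26), Sc5d (0.82), Acss2 (0.37) and Fads1 (0.36). The lower ones included Acacb (-0.73), Insig1 (-0.58), Ebp (-0.52) and Elovl6 (-0.45). Among the 3 FOXA1 constructs, R219S had the lowest mean at day 11 in 15 of 21 sterol genes, and WT in 6 of 13 fatty acid genes.

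EV organoids themselves lost much of the pathway with time. At day 11, 31 of the 34 genes were lower than at day 0 and 2 were higher, against 24.6% and 23.1% of all genes tested, with a median of -0.58, against 0.00 over all genes. All 21 sterol genes were lower (median -0.71), as were 10 of 13 fatty acid genes (median -0.34). Idi1 had 32.2, 28.2 and 27.1 CPM at day 11, against 74.4, 69.1 and 70.8 at day 0 (log2 fold change -1.29, SE 0.08, adjusted p = 3.37e-14), and Elovl6 67.4, 61.5 and 62.0 CPM, against 134, 129 and 145 (log2 fold change -1.10, SE 0.07, adjusted p = 3.37e-14). Cyp51, Mvd, Ebp and Msmo1 had log2 fold changes of -1.005, -0.89, -0.85 and -0.84, and in the fatty acid arm Fads2 and Scd1 had -0.75 and -0.63. Acacb (0.38) and Srebf1 (0.13) were the 2 higher genes, and Srebf1 had 211, 203 and 218.5 CPM at day 11, against 185, 195 and 197 at day 0. The low levels at day 11 were thus common to EV and the FOXA1 constructs. At day 1, 0 of the 34 genes passed against day 0 in EV by edgeR, where 1.43% of all genes did, with 2 of the 34 at an unadjusted p under 0.05 and 0 by DESeq2.

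**Figure D4:**
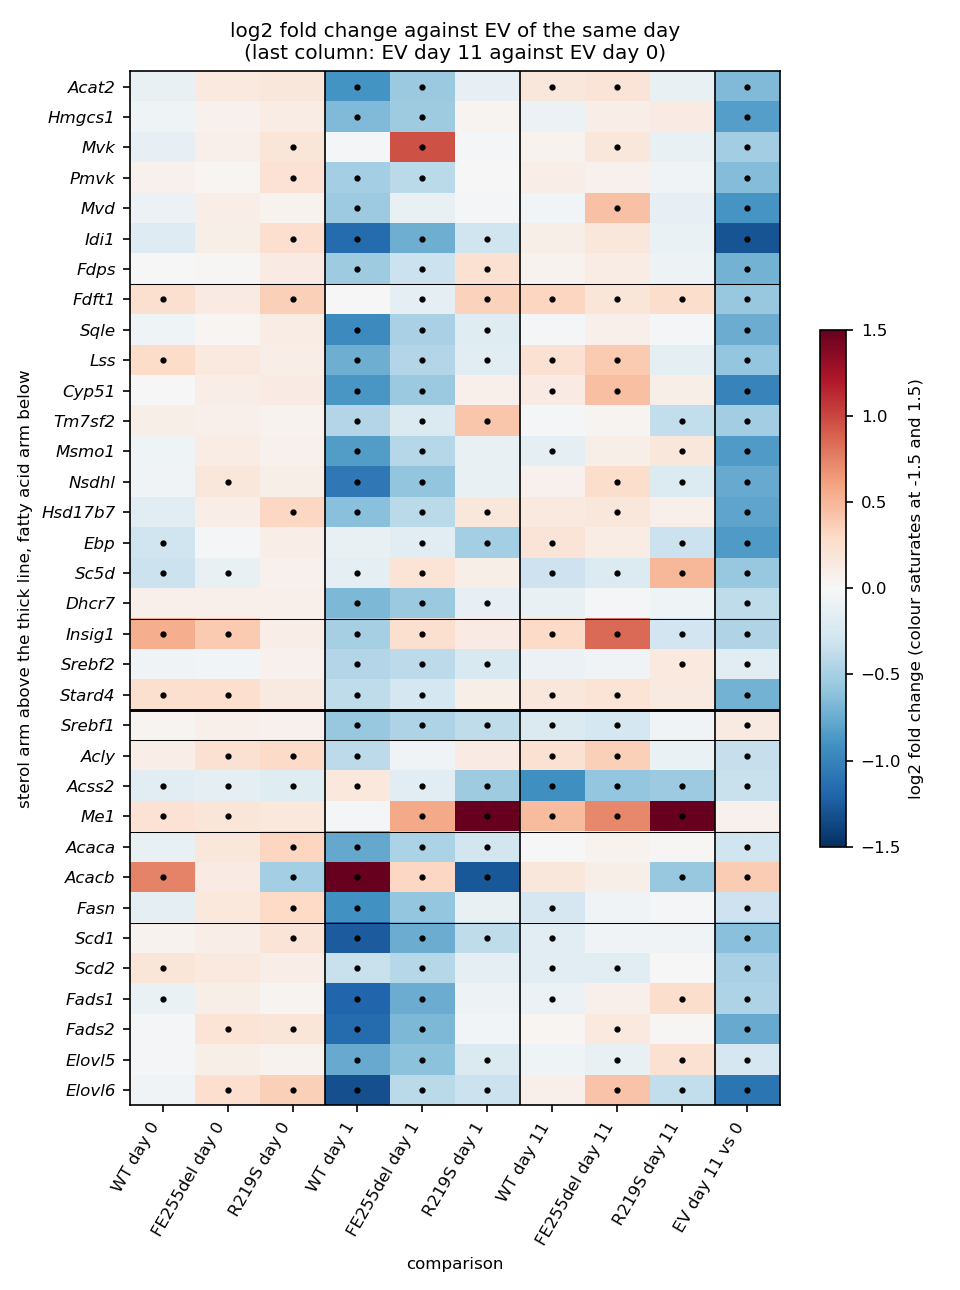
Log2 fold change of the 34 genes (rows) for WT, FE255del and R219S against EV at days 0, 1 and 11, and for EV at day 11 against EV at day 0. Red is higher and blue lower in the first-named group, and a dot marks an adjusted p under 0.05. The day 1 columns of WT (28 lower) and FE255del (27 lower) and the last column (31 lower) are mostly blue, and the day 11 columns of the constructs are pale.

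The constructs already differed at the first day sampled. At day 0, 7 of the 34 genes were higher and 4 lower in WT organoids than in EV, against 9.9% and 12.8% of all genes tested. In FE255del 7 were higher and 2 lower, against 11.1% and 9.72%, but only 4 were called without replicate 2 of EV and 5 without replicate 2 of FE255del, all higher. In R219S 11 were higher and 2 lower, against 13.2% and 6.92%. Insig1 had 150.2, 148 and 154 CPM in WT and 138, 139 and 131 in FE255del, against 102, 106 and 103 in EV, above all EV libraries (WT: log2 fold change 0.54, SE 0.08, adjusted p = 2.74e-06; FE255del: log2 fold change 0.39, SE 0.08, adjusted p = 0.000458). Acacb had 13.8, 14.0 and 11.6 CPM in WT and 5.505, 6.20 and 4.78 in R219S, against 7.27, 8.72 and 7.63 in EV (WT: log2 fold change 0.74, SE 0.09, adjusted p = 2e-07; R219S: log2 fold change -0.51, SE 0.10, adjusted p = 0.000344). Sc5d (-0.32) and Ebp (-0.30) were lower in WT, and Fdft1 (0.36), Elovl6 (0.36) and Hsd17b7 (0.31) were higher in R219S. Against WT at day 0, FE255del had 15 genes higher and 1 lower, against 15.7% and 11.2% of all genes, and R219S 17 higher and 2 lower, against 23.8% and 16%, or 11 and 5 under total-count scaling.

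Because of these differences, the change of each construct since day 0 was also set beside the change of EV over the same days, as an interaction term. At day 1, the log2 change was lower than that of EV for 29 of the 34 genes and higher for 4 in WT, against 23.8% and 20.2% of all genes tested. The counts were 26 and 3 in FE255del, against 22.9% and 17.4%, and 18 and 2 in R219S, against 23.3% and 16.1%. In WT this difference in change was -1.31 for Scd1, -1.26 for Elovl6, -1.04 for Insig1, -1.01 for Lss and -1.01 for Nsdhl, and it was 1.54 for Acacb. In FE255del it was 0.88 for Mvk and -0.89 for Fads2, and in R219S 1.5004 for Me1 and -0.76 for Acacb. At day 11 it was lower for 5 genes and higher for 4 in WT, against 10.5% and 10.9% of all genes, or 4 and 1 without replicate 3 of EV at day 11 and 4 and 5 under total-count scaling. In FE255del it was 4 and 4, against 11.1% and 9.44%, and in R219S 13 and 4, against 14.7% and 12.4%, or 8 and 3 without replicate 1 of R219S at day 11.

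The difference from EV was then compared between the days. From day 1 to day 11 it moved upward for 29 genes and downward for 3 in WT, against 24.1% and 20.4% of all genes tested, with a median of 0.62, and for 28 and 3 in FE255del, against 20.1% and 14.5%, with a median of 0.52. In R219S 8 moved upward and 4 downward, counts near the shares of 16.7% and 12.7%, with a median of 0.06. Elovl6 moved by 1.396, Idi1 by 1.248 and Nsdhl by 1.14 in WT, and Cyp51 by 0.9996 and Idi1 by 0.91 in FE255del. Acacb moved by -2.11 in WT, and Tm7sf2 by -0.79 in R219S. Between day 1 and day 11 the mean sterol score fell from 0.26 to -0.43 in EV. In WT it was -0.35 and -0.36, and in FE255del -0.13 and -0.29. The upward moves of the sterol arm thus came with a fall in EV, not with a rise in WT or FE255del. The mean fatty acid score fell from 0.22 to -0.19 in EV. It rose from -0.58 to -0.26 in WT and from -0.30 to -0.12 in FE255del.

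Genes around the pathway were read from further, short lists. Their counts stand beside all genes tested at day 1, of which 29.6% were higher and 30.9% lower in WT, 25.5% and 27.7% in FE255del, and 23.2% and 25.3% in R219S. Of 5 tested cofactors of fatty acid synthesis, 5 were lower in WT at day 1 (median -0.90), 5 in FE255del (median -0.39) and 3 in R219S, where 1 was higher (median -0.24). Among them Mid1ip1, which activates acetyl-CoA carboxylase, had log2 fold changes of -0.90, -0.21 and 0.26 in WT, FE255del and R219S. Of 10 genes of fatty acid oxidation, 7 were higher and 1 lower in WT (median 0.54), 7 and 1 in FE255del (median 0.35), and 4 and 4 in R219S (median -0.02). Hadhb, a subunit of the mitochondrial trifunctional protein, was higher by 1.01 in WT and 0.73 in FE255del and lower in R219S (-0.16). Cpt1a, which brings fatty acids into mitochondria and is the step that malonyl-CoA restrains, was lower in WT (-0.28) and R219S (-0.47).

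The next counts stand beside the same shares of all genes, and several lie near them. Of 8 genes of SREBP processing and turnover, 4 were higher and 1 lower in WT at day 1, 4 and 2 in FE255del, and 5 and 2 in R219S. Erlin1, an endoplasmic reticulum protein that binds SREBP complexes, was higher by 1.61, 1.26 and 1.92, and Insig2, the second INSIG, by 0.24, 0.20 and 0.63. Mbtps1, the site-1 protease that releases SREBPs, was higher by 0.30, 0.46 and 0.39. Of 8 genes of triglyceride and sterol ester storage, 5 were higher and 2 lower in WT, 5 and 2 in FE255del, and 3 and 4 in R219S. Soat1, which esterifies cholesterol, was higher by 1.08, 1.68 and 0.95, Gpam, the first acyltransferase of glycerolipid synthesis, by 1.74, 0.49 and 0.26, and Dgat2, the last enzyme of triglyceride synthesis, was lower (-1.25, -0.30 and -1.44). Of 9 genes that draw on farnesyl diphosphate for products other than sterols, 5 were higher and 2 lower in WT, 5 and 1 in FE255del, and 2 and 4 in R219S. Of 8 other elongation and desaturation genes, 3 were higher and 4 lower in WT, 2 and 4 in FE255del, and 3 and 3 in R219S, of 4 acyl-CoA synthetases 2 and 2, 2 and 2, and 1 and 1, and of 6 tested LXR genes 1 and 1, 1 and 4, and 1 and 3. The 4 copies of pathway genes (Acat3, Idi2, Scd3, Scd4), with which reads could be confused, had group means of at most 5.93 CPM.

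Markers of cell state also differed between the groups. At day 1, 30.9%, 27.7% and 25.3% of all genes tested were lower in WT, FE255del and R219S, and 29.6%, 25.5% and 23.2% were higher. All 12 cell division genes listed were lower in WT (median -1.02) and FE255del (median -0.60) at day 1 and 11 of 12 in R219S (median -0.37), with summed levels of 1197 to 1347 CPM in WT, 1582 to 1666 in FE255del and 1821 to 1947 in R219S, against 2413 to 2606 in EV. In EV all 12 were lower at day 11 than at day 0 (median -1.09), against 24.6% of all genes tested. At day 11, 9 of the 12 were higher in WT than in EV and 12 in FE255del, against 21% and 22.6% of all genes. In R219S 6 were lower, against 14.4%. The 3 basal markers (Krt5, Krt14, Trp63) summed to 2335 to 2452 CPM in WT, 1085 to 1199 in FE255del and 4299 to 4372 in R219S at day 1, against 6959 to 7668 in EV, and 3, 3 and 2 of them were lower. The 4 epithelial markers summed to 2104 to 2224 CPM in WT, 2308 to 2375 in FE255del and 2481 to 2584 in R219S at day 1, against 3052 to 3176 in EV, without overlap, and 3, 3 and 4 of them were lower. The 4 luminal markers (Krt8, Krt18, Krt19, Cd24a) summed to 3408 to 3503 CPM in WT, 3760 to 3950 in FE255del and 5298 to 5420 in R219S at day 1, against 3612 to 3860 in EV. Of these 4 genes 3, 2 and 3 were lower and 1 each was higher, Cd24a, with list medians of -0.42, -0.13 and -0.71. Their part in the results for the lipid genes was not tested. Markers of other cells were near 0: over the 36 libraries the sums reached 1.06 CPM for 5 adipocyte genes, with Lep at 0 in every library, 8.86 for 4 leukocyte genes, 6.73 for 2 endothelial genes, 0.975 for 2 muscle genes and 47.0 for 5 fibroblast genes, with the last range highest in R219S at day 11 (32.6 to 47.0 CPM, against 10.3 to 20.2 in EV). At day 1 the endothelial sum was 4.10 to 4.61 CPM in WT and 6.23 to 6.73 in FE255del, against 0.48 to 0.67 in EV. The adipocyte sum was 0.98 to 1.06 CPM in WT at day 1, against 0.03 to 0.06 in EV. The leukocyte sum was lower in WT at day 1, at 1.19 to 2.00 CPM, against 4.40 to 4.83 in EV.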

How the data were processed

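The deposited tables hold expected counts per Ensembl gene for 36 RNA-seq libraries of 12 groups, some of them written with a fraction but all within 3.0e-09 of a whole number, and they were rounded. Per the submitters' processing notes, STAR 2.4.2a, featureCounts 1.4.3 and mm10 were used, and per the labels' protocols the libraries are stranded and poly(A)-selected. Of the values from 1 to 20, 69.7% are even, so both reads of a pair may have been counted and counts are not independent molecules. Of the 45232 gene IDs, 44585 had a symbol in GENCODE M21. Genes passing filterByExpr (18176) were fitted in edgeR 4.0.16 (R 4.3.3) with TMM scaling, 1 mean per group over all 36 libraries and quasi-likelihood tests, with Benjamini-Hochberg adjustment over all genes of each comparison and a threshold of 0.05. Standard errors were derived from the test statistic. The scores used a prior count of 3. Members were named by rule: per comparison, arm and direction, among up to 5 called members with the largest change whose libraries did not overlap, the regulators, and the largest changes of each role group. Genes of other lists were among those with the smallest p, and the remaining ones were chosen after their values were seen. Alternatives were RLE and total-count scaling, other filters, DESeq2 1.42.0, fits of the compared groups alone, the replicate number as a block, and leaving out each library. The members and lists were chosen with earlier results of these data known, and the 3 comparisons between days of the difference from EV were added after seeing the data. The code was tested on simulated counts. No protein sequences were used here.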

Additional observations from a re-analysis of the deposited data

Results flagged for a closer look

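The following differences between constructs or days were picked out because the difference itself passed in edgeR's quasi-likelihood test. Between FE255del and WT organoids, 28 of the 34 genes differed at day 1, against 41.7% of all genes tested, and 12 at day 11, against 17.7%. Between R219S and WT organoids, 33 differed at day 1, against 59.6%, and 22 at day 11, against 48.9%. Beside the change of EV since day 0, 33 genes changed differently by day 1 with WT, 29 with FE255del and 20 with R219S, against 44%, 40.2% and 39.4% of all genes. By day 11 there were 9, 8 and 17 such genes, against 21.4%, 20.5% and 27.1%. The day 11 counts of WT and FE255del lie near these shares, and that of WT was 5 without replicate 3 of EV at day 11. The difference from EV was itself different at day 11 and at day 1 for 32 genes with WT, 31 with FE255del and 12 with R219S, against 44.5%, 34.6% and 29.4%. The R219S count lies near its share.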

How the results depend on the processing

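No called gene was called in the opposite direction under any alternative run. Of 182 alternative counts of genes called, 178 lay within 1.5 times the value given, and of 364 alternative arm medians 303 moved by less than the spread between replicates. Of the 517 calls, RLE scaling kept 489, total-count scaling 463, no low-count filter 468, the strict filter 502, DESeq2 494 and fits of the compared groups alone 477. The number of a replicate did not pair the cultures: every same-numbered pair correlated above 0.1 in 1 of 66 pairs of groups (range of r -0.28 to 0.34), and with the replicate block 513 of the 517 calls were kept. Total-count scaling moved the median of all genes by 0.117 for WT against EV at day 1 and by 0.115 for the change of FE255del by day 1. With the compared groups alone, the number of genes called was 17 (15 higher, 2 lower) for FE255del against EV day 0, 9 (5 higher, 4 lower) for R219S against EV day 11, 2 (0 higher, 2 lower) for EV day 1 against day 0 and 8 (4 higher, 4 lower) for the change of R219S by day 11. Under total-count scaling, the sterol and fatty acid medians were -0.42 and -0.63 for WT against EV day 1, -0.30 and -0.36 for FE255del against EV day 1, 0.031 and -0.16 for R219S against EV day 1 and 0.067 and 0.077 for FE255del against WT day 0. The pairs were also 0.060 and 0.066 for R219S against WT day 0, 0.56 and 0.47 for R219S against WT day 1, -0.51 and -0.56 for the change of WT by day 1 and -0.38 and -0.53 for the change of FE255del by day 1. The pairs were also -0.070 and -0.25 for the change of R219S by day 1, 0.51 and 0.58 for the day 11 minus day 1 difference of WT, 0.45 and 0.41 for the day 11 minus day 1 difference of FE255del and -0.091 and 0.022 for the day 11 minus day 1 difference of R219S. The sterol median was 0.064 for R219S against EV day 0 and 0.11 for WT against EV day 11. The fatty acid median was 0.056 for R219S against WT day 11. With the compared groups alone, the sterol and fatty acid medians were -0.36 and -0.42 for FE255del against EV day 1, 0.019 and -0.17 for R219S against EV day 1, -0.44 and -0.59 for the change of FE255del by day 1 and -0.099 and -0.28 for the change of R219S by day 1. The sterol median was 0.098 for R219S against WT day 0. Under RLE scaling, and likewise DESeq2, the sterol and fatty acid medians were -0.37 and -0.43 for FE255del against EV day 1, -0.46 and -0.60 for the change of FE255del by day 1 and -0.12 and -0.30 for the change of R219S by day 1. The sterol median was 0.011 for R219S against EV day 1. Without a low-count filter, the sterol and fatty acid medians were -0.36 and -0.43 for FE255del against EV day 1 and -0.47 and -0.61 for the change of FE255del by day 1. The sterol median was 0.0025 for R219S against EV day 1, -0.67 for EV day 11 against day 0 and -0.13 for the change of R219S by day 1. With the strict filter, the sterol median was -0.39 for FE255del against EV day 1, 0.097 for R219S against WT day 0, -0.47 for the change of FE255del by day 1 and -0.13 for the change of R219S by day 1. Leaving out 1 library at a time, the number of genes called ran from 4 to 7 for FE255del against EV day 0, 10 to 14 for WT against EV day 11, 12 to 20 for FE255del against EV day 11, 5 to 10 for the change of WT by day 11 and 11 to 23 for the change of R219S by day 11. Leaving out 1 library at a time, the sterol and fatty acid medians were -0.40 to -0.36 and -0.49 to -0.43 for FE255del against EV day 1, -0.049 to 0.0044 and -0.25 to -0.18 for R219S against EV day 1, -0.52 to -0.46 and -0.69 to -0.59 for the change of FE255del by day 1 and -0.19 to -0.15 and -0.39 to -0.29 for the change of R219S by day 1. The pairs were also -0.013 to 0.10 and -0.21 to -0.024 for the change of FE255del by day 11. The sterol median was 0.052 to 0.092 for WT against EV day 11, 0.078 to 0.21 for FE255del against EV day 11, 0.081 to 0.16 for FE255del against WT day 0, 0.12 to 0.17 for R219S against WT day 0 and 0.58 to 0.69 for R219S against WT day 1. The sterol median was -0.22 to -0.023 for R219S against WT day 11, -0.71 to -0.67 for EV day 11 against day 0, -0.31 to -0.14 for the change of R219S by day 11, 0.46 to 0.58 for the day 11 minus day 1 difference of FE255del and -0.098 to 0.056 for the day 11 minus day 1 difference of R219S. The fatty acid median was -0.74 to -0.59 for the change of WT by day 1. The causes of these shifts were not tested. With 3 cultures a group and a common spread of 0.0695 (biological coefficient of variation), small differences at day 0 and day 11 were near the threshold, and low genes such as Acacb in R219S organoids carry more counting error than the others.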
